A study of Mus musculus with 2 samples.

Results

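Enzymes that add or remove methyl and acetyl groups on histones and DNA were compared between B16 and B16/BL6 mouse melanoma cells. They were taken by symbol from the deposited expression lists (the Dnmt, Tet, Uhrf, Kmt or Mll, Ezh, Setd, Kdm, Kat, Hdac, Sirt and Prmt names, with 3 Kdm symbols left out). The names matched 66 of 23284 listed genes. B16 is a melanoma line of C57BL/6 origin, here grown in DMEM, and B16/BL6 is an invasive subline of it, here grown in RPMI. Both media held fetal bovine serum and antibiotics. The submitters searched for genes related to metastasis. There was 1 RNA sequencing library of each line, so values carry no replicate error and the differences were not tested. The line and its medium cannot be told apart. In such bulk RNA, fewer cells of a type and less RNA per cell cannot be told apart either.

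Values are FPKM, fragment counts scaled by transcript length and library depth, which allows levels of different genes to be set side by side. Each difference below subtracts log2(FPKM + 1) of B16 from that of B16/BL6, a scale that understates differences of low genes. The minimum for a gene was 1 FPKM in either library, which 10709 genes and 61 of the 66 enzymes reached. Of 6 melanocyte markers, Pmel (2166 FPKM in B16 against 4651 in B16/BL6), Mlana (3789 and 6160 FPKM), Dct (2238 and 3423 FPKM), Mitf (97.1 and 90.7 FPKM) and Sox10 (308 and 262 FPKM) were well above the median gene in both. Tyr, the tyrosinase gene, was at 10.6 and 164 FPKM, a ratio of 15.5 and below the median gene of 14.7 FPKM in B16. None of 17 markers of fibroblasts, leukocytes, endothelium and epithelium reached the minimum, and 11 of them were listed at 0 in both libraries, and their sums per cell type were at most 0.729 FPKM. From the steps between the lowest values, the B16/BL6 library was about 1.10 times as deep as the B16 library. An approximate estimate put the depths at 1.01e+07 and 1.12e+07 fragments, and the fragment numbers below rest on it and on the longest annotated transcript.

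DNA methylation at CpG sites is copied after replication by Dnmt1, which Uhrf1 brings to hemimethylated DNA, and is set on unmethylated DNA by Dnmt3a and Dnmt3b. Tet enzymes oxidise the methyl group and so begin its removal. On histones, acetyl groups are written by acetyltransferases and removed by zinc-dependent deacetylases and NAD-dependent sirtuins. Lysine and arginine methyl groups are written by SET domain and Prmt enzymes, and lysine methyl groups are removed by Kdm enzymes. In melanoma, Ezh2, Setdb1, Hdac enzymes and loss of the oxidised form of methylcytosine have been much studied.

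The quartiles of the enzymes' differences lay about as far apart as those of all genes, but their standard deviation was lower. Prmt7 and Sirt1 were at the ends. Of the 61 enzymes, 0 were higher in B16/BL6 by 2-fold or more, where 3.31% of all 10709 genes were, and 0 were lower by as much, where 3.16% of all genes were, counts near those shares. The differences ran from -0.94 (Prmt7) to 0.77 (Sirt1), with a median of -0.10 beside 0.01 over all genes. Their quartiles were -0.29 and 0.20, beside -0.25 and 0.26 over all genes. Their standard deviation was 0.34, beside 0.67 over all genes, which include genes with far larger differences. Within 1.5-fold lay 56 of the enzymes (91.8%) and 82.1% of all genes, and within 1.25-fold 38 of the enzymes (62.3%) and 59.3% of all genes. Above 0 were 28 enzymes (45.9%, beside 50.6% of all genes) and below 0 were 33. As plain ratios without the pseudocount, 2 enzymes, Tet1 and Sirt1, were past 2-fold, both higher in B16/BL6, where 4.51% of the genes with a ratio were. The level of the enzymes was also ordinary, with a median of 12.4 FPKM in B16 against 12.2 in B16/BL6, beside 14.7 and 14.6 FPKM over all genes. The spread of all genes differed with their level, so the enzymes averaging 5 to 20 FPKM were set beside the 3931 genes of that level. The 30 enzymes had a standard deviation of 0.33 and the genes 0.61, and 5.47% of the genes were past 2-fold in either direction.

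**Figure D1:**
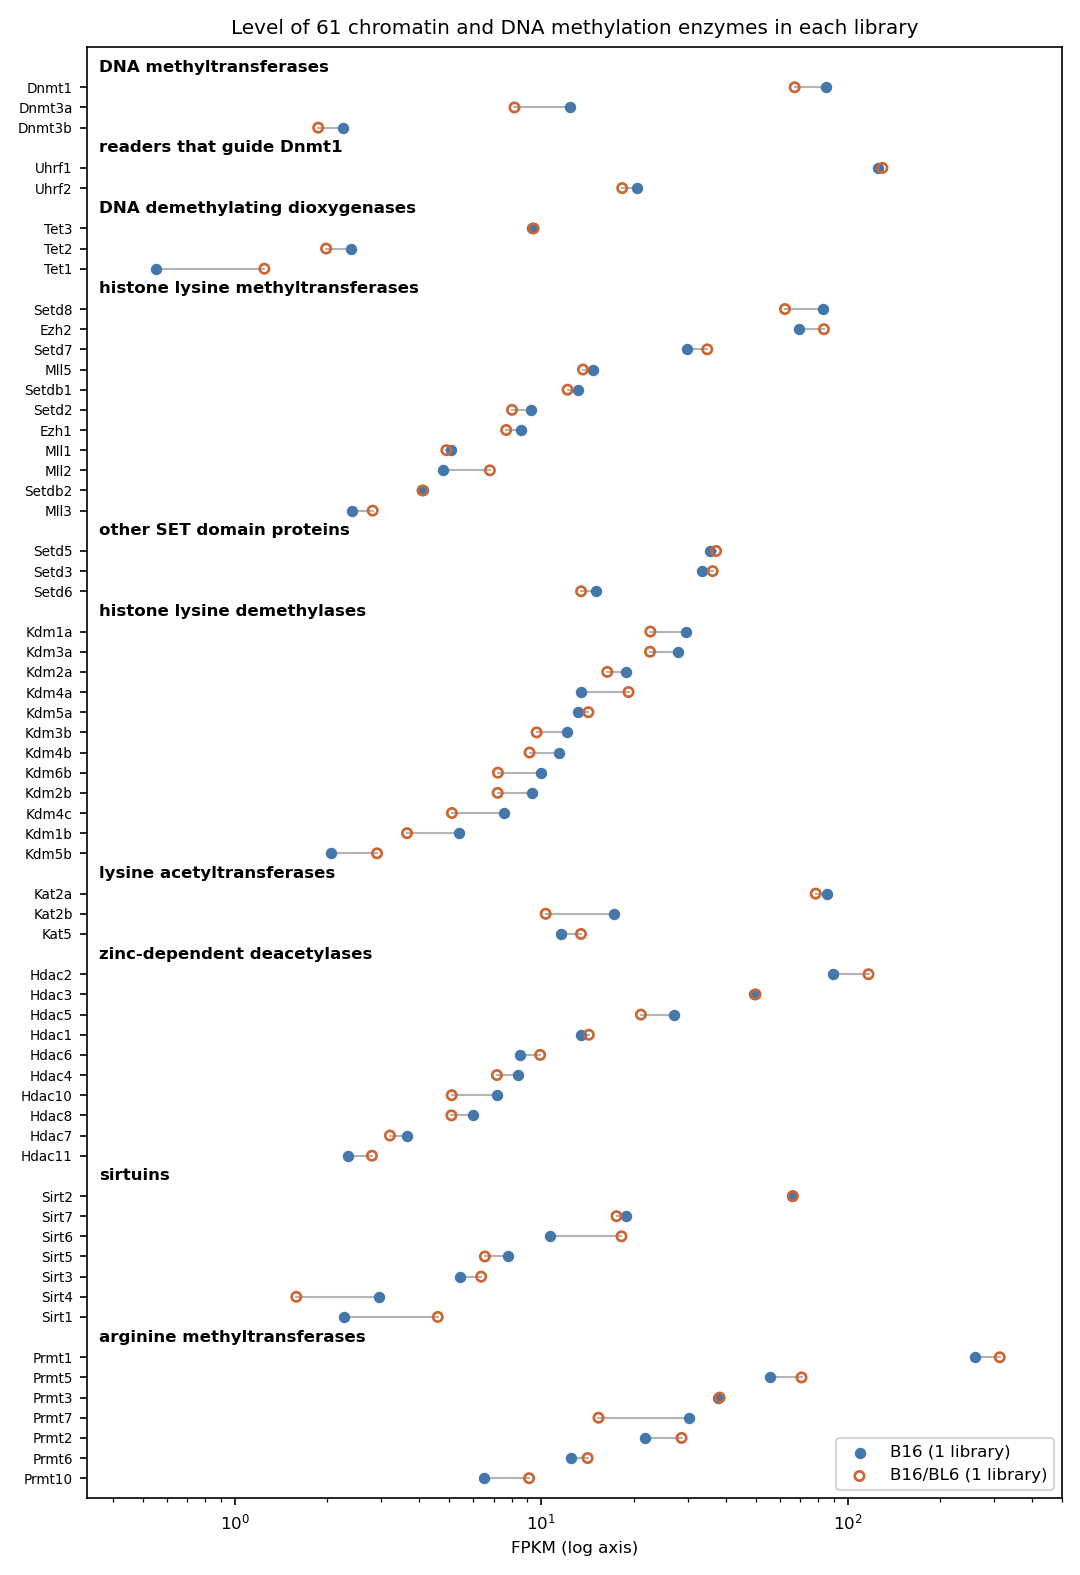
Level in FPKM (horizontal log axis) of the 61 enzymes that reached the minimum, grouped by role, with B16 as filled points and B16/BL6 as open circles (1 library each). The lines joining the points are short for most genes, and Prmt7, Sirt1, Sirt4, Sirt6, Tet1 and Kat2b have the longest.

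**Figure D2:**
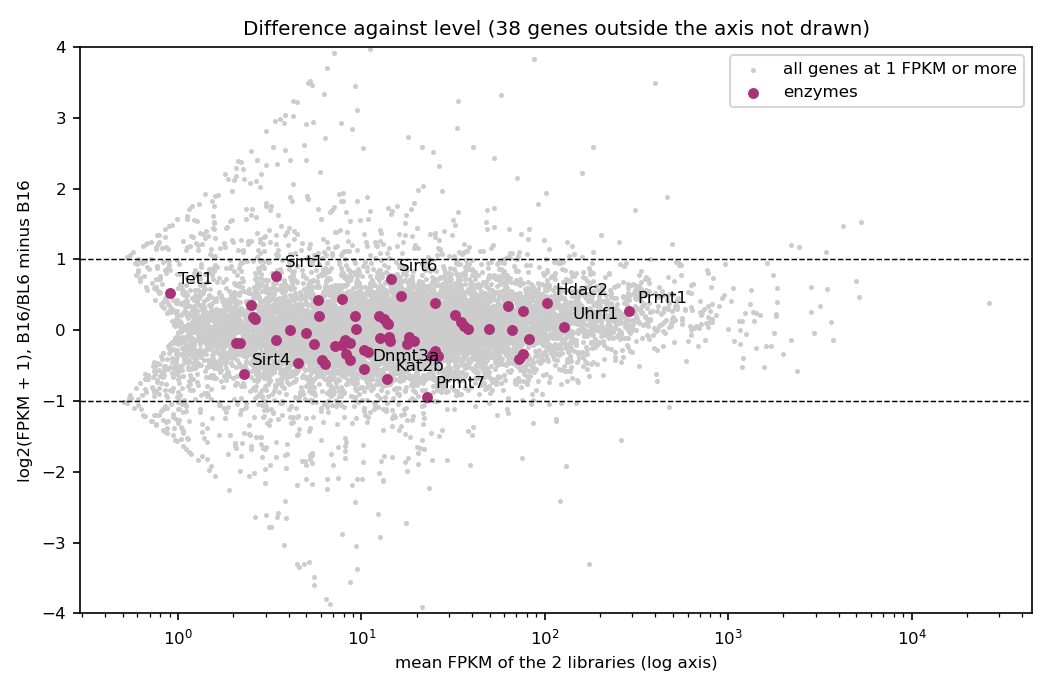
Difference in log2(FPKM + 1), B16/BL6 minus B16, against the mean FPKM of the 2 libraries (log axis), for all 10709 genes (grey) and the 61 enzymes (coloured). The dashed lines mark 2-fold, and every enzyme lies between them; 38 genes lie outside the vertical range of -4 to 4.

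The enzymes at the 2 ends were Prmt7 and Sirt1. Prmt7, which encodes an enzyme that adds a single methyl group to arginine (chromosome 8, 106211054 to 106251694, in GRCm38 coordinates as below), was at 30.4 FPKM in B16 against 15.4 in B16/BL6, about 1063 and 597 fragments. Its value in B16/BL6 was thus 0.505 of that in B16, just short of 2-fold. All 20 expressed genes nearest to it on the chromosome, 10 on each side, had higher differences, with a median of -0.002. Sirt1, which encodes a nuclear NAD-dependent deacetylase (chromosome 10, 63319005 to 63339035), was at 2.28 FPKM in B16 against 4.59 in B16/BL6, about 102 and 228 fragments. It lay above all 20 of its nearest expressed neighbours, whose median was 0.07. Such ranks among neighbours, here and below, follow in part from a large difference and are not separate support for it.

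Promoters of these 2 genes are shown with those of 2 enzymes listed at 0 in both libraries, because CpG sites are what the Dnmt and Tet enzymes act on. Each is the 200 bases before an annotated start, 5′ to 3′ on the gene's strand, from RefSeq on GRCm38.p6, with each CpG in capitals. The regions are chr10:63339036-63339235 on the minus strand for Sirt1, chr8:106210854-106211053 on the plus strand for Prmt7, chr6:127769156-127769355 on the minus strand for Prmt8 and chr10:78042087-78042286 on the plus strand for Dnmt3l.
Sirt1: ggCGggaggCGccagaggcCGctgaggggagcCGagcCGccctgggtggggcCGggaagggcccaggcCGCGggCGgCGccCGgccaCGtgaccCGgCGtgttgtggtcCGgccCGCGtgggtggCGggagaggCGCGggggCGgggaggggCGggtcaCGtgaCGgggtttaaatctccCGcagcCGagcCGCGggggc
Prmt7: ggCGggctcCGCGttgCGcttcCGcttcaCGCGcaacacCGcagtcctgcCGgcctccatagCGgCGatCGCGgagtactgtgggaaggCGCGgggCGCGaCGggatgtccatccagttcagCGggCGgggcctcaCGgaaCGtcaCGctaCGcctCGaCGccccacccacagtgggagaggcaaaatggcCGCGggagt
Prmt8: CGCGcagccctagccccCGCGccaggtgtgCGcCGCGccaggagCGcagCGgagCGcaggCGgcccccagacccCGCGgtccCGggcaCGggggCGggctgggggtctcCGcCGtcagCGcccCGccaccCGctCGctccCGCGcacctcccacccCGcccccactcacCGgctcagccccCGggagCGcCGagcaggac
Dnmt3l: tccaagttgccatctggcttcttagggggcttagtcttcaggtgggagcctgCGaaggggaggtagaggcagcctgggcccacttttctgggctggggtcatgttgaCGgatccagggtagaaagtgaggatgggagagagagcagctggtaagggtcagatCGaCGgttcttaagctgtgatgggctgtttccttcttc

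The Sirt1 and Prmt7 stretches hold 28 CpG each, the Prmt8 stretch 29 and the Dnmt3l stretch 4. Prmt8, an arginine methyltransferase gene known mainly from brain, was listed at 0 with a promoter as rich in CpG as those of the expressed genes, and Dnmt3l, the germ cell partner of the de novo methyltransferases, with a poor one. Methylation of these sites was not measured. The promoter table held windows of 300 bases, 250 before and 50 after a start, for 56 of the 66 enzymes. The 72 windows of enzymes past the minimum had a median of 22 CpG, beside 21 over the 11047 windows of all genes past the minimum and 7 over all 32851 windows. The GC box GGGCGG was found on either strand in 63.9% of the enzymes' windows, beside 65.1% for expressed genes and 35.7% of all windows. The NF-Y box CCAAT was in 44.4%, beside 38.0% and 37.4%. The E-box CACGTG was in 9.72%, beside 10.4% and 7.15%, and the related CATGTG, which Mitf can also bind, in 6.94%, beside 7.96% and 14.2%. By CpG number and these motifs the promoters of the enzymes were close to those of expressed genes.

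All 3 expressed DNA methyltransferase genes had lower values in B16/BL6. Dnmt1, the maintenance enzyme (chromosome 9, 20907206 to 20959888), was at 85.1 FPKM in B16 against 67.1 in B16/BL6, a difference of -0.34. The de novo enzyme gene Dnmt3a (chromosome 12, 3801559 to 3914443) was at 12.4 and 8.17 FPKM, a difference of -0.55, and lay below all 16 of its nearest expressed genes (10 on one side and fewer on the other), whose median was 0.02. The other de novo gene, Dnmt3b, was low at 2.26 and 1.87 FPKM, about 98 and 90 fragments. Dnmt1 made up 85.3% of the FPKM sum of the class in B16 and 87.0% in B16/BL6, and the sum was 99.8 and 77.1 FPKM. The 3 differences stayed below 0 under every scaling tried.

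The Uhrf genes, whose products guide Dnmt1, differed less. Uhrf1, which binds hemimethylated CpG, was at 126 FPKM in B16 against 130 in B16/BL6, and its paralog Uhrf2 at 20.5 and 18.4 FPKM. Both are within 1.25-fold, and the sign of Uhrf1 turns with the scaling (0.05 as deposited and -0.12 on the TPM scale, where each library sums to 1000000). Uhrf1 transcripts were more abundant than those of Dnmt1 in both libraries.

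Of the Tet genes, Tet3 was the most abundant, at 9.30 FPKM in B16 against 9.43 in B16/BL6, and made up 75.9% and 74.5% of the FPKM sum of the Tet genes. Tet2 was at 2.39 and 1.98 FPKM. Tet1 (chromosome 10, 62804570 to 62887469) was at 0.555 and 1.25 FPKM, about 80 and 201 fragments over its long transcript, a plain ratio of 2.25 and a difference of 0.53 with the pseudocount. The ratio of Tet2 to Tet1 was 4.31 in B16 and 1.59 in B16/BL6. With 1 library each and such low levels, no error can be given for it.

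Histone lysine methyltransferase genes differed in both directions by small amounts. Of 11 past the minimum, 4 were above 0 and 7 below, with a median of -0.05. Ezh2, the catalytic subunit of Polycomb repressive complex PRC2 (chromosome 6, 47530274 to 47595270), was at 69.2 FPKM in B16 against 83.6 in B16/BL6, while its paralog Ezh1, typical of non-dividing cells, was at 8.59 and 7.68 FPKM. The ratio of Ezh2 to Ezh1, which does not depend on the scaling of a library, was 8.06 and 10.9. Setd8 (now Kmt5a), which sets the monomethyl mark on histone H4, was at 82.9 and 62.4 FPKM, a difference of -0.40. Setd8 was the most abundant of the class in B16 and Ezh2 in B16/BL6. Setd8 held 34.0% of the class sum in B16 and 25.9% in B16/BL6, and Ezh2 28.4% and 34.7%.

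The remaining lysine methyltransferase genes of the class were lower in level than Ezh2 and Setd8. Setdb1, which sets repressive methylation on histone H3 and is amplified in some melanomas, was at 13.2 FPKM in B16 against 12.2 in B16/BL6, and Setdb2 at 4.10 and 4.09 FPKM. Setd7 was at 29.8 and 34.8 FPKM, and Setd2, the writer of the mark over transcribed genes, at 9.28 and 8.02 FPKM. Among the large Mll genes, most of whose products mark promoters and enhancers, Mll2 was at 4.79 and 6.79 FPKM (0.43). The symbol Mll2 has been used for both Kmt2b and Kmt2d, so it was given no chromosome here. Wbp7, an older symbol of Kmt2b alone, was listed separately (9.26 and 8.38 FPKM), which makes Kmt2d the likelier gene. Mll1 (now Kmt2a) was at 5.09 and 4.90 FPKM, Mll3 at 2.40 and 2.82 FPKM and Mll5 at 14.7 and 13.7 FPKM, though 13.3% of the exon bases of Mll5 are shared with the neighbouring Srpk2. The other SET domain genes Setd3, which encodes an actin histidine methyltransferase, Setd5 and Setd6 were between 13.5 and 37.2 FPKM in both lines, with differences from -0.16 to 0.11. Setd4 stayed under the minimum, at 0.840 and 0.660 FPKM.

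Lysine demethylase genes were mostly lower in B16/BL6. Of 12 past the minimum, 9 were below 0 and 3 above, where 50.6% of all genes were above 0. Their median was -0.30 beside 0.01 over all genes. On the TPM scale, which shifts the median of all genes by -0.16, 10 were below 0 and the median was -0.47. With each chromosome centred the median was -0.18. The class sum was 161 FPKM in B16 against 140 in B16/BL6. Kdm1a (LSD1), the flavin-dependent demethylase of the CoREST complex, was at 29.6 and 22.7 FPKM (-0.37), and its paralog Kdm1b at 5.37 and 3.64 FPKM (-0.46). Kdm6b, which removes the Polycomb mark, was at 10.0 and 7.22 FPKM (-0.42). The 20 nearest expressed genes had a median of -0.39 around Kdm1b and -0.23 around Kdm6b, but -0.02 around Kdm1a. The Kdm2 and Kdm3 genes, 4 in all, had differences from -0.33 (Kdm2b) to -0.19 (Kdm2a), and 10.7% of the exon bases of Kdm2b are shared with Rnf34. Kdm4d, largely a testis gene, was listed at 0 in both libraries. Not counted in the class were Kdm genes listed under older symbols. Jhdm1d (now Kdm7a) was at 2.43 and 3.04 FPKM (0.24), and Jmjd5 (now Kdm8) at 4.94 and 4.07 FPKM (-0.23).

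The Kdm4 genes, which act on methylated lysines of histone H3, went different ways. Kdm4a (chromosome 4, 118136957 to 118180090) was at 13.5 FPKM in B16 against 19.3 in B16/BL6, a difference of 0.48. Kdm4b was at 11.4 and 9.15 FPKM, and Kdm4c at 7.53 and 5.11 FPKM, a difference of -0.48. The ratio of Kdm4a to Kdm4c was 1.80 in B16 and 3.77 in B16/BL6, and it is free of library scaling. Kdm4a lay above 19 of its 20 nearest expressed genes, whose median was -0.04. The other demethylases above 0 were Kdm5a, at 13.2 and 14.2 FPKM, and Kdm5b, which has been tied to slow-cycling melanoma cells, at 2.07 and 2.91 FPKM (0.35).

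Of the acetyltransferases, Kat2b stood out by its lower value in B16/BL6. Kat2b (PCAF), a catalytic subunit of SAGA-type coactivator complexes (chromosome 17, 53566774 to 53672721), was at 17.3 FPKM in B16 against 10.3 in B16/BL6, a difference of -0.69, and 1 of its 20 nearest expressed genes was lower. Its paralog Kat2a (GCN5), which takes the same place in the complex, was at 85.4 and 78.6 FPKM. The ratio of Kat2a to Kat2b was 4.95 and 7.60. Kat5 (Tip60), the NuA4-type enzyme of DNA damage responses, was at 11.6 and 13.5 FPKM, with 18.9% of its exon bases shared with other genes, Rnaseh2c among them. The 3 Kat symbols are not all of the Kat enzymes. The files listed 11 genes whose current symbols fit the same patterns under other names, which were looked up after the values were seen. Among them Myst1, Myst2, Myst3 and Myst4 (now Kat8, Kat7, Kat6a and Kat6b) had differences from -0.20 to 0.07. Csrp2bp (now Kat14) was at 36.6 and 23.5 FPKM (-0.62).

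The zinc-dependent deacetylases were split evenly, with 5 of 10 above 0 and a median of -0.06, but 3 of 10 were above 0 on the TPM scale. Hdac2 (chromosome 10, 36974297 to 37001889) was at 89.7 FPKM in B16 against 117 in B16/BL6, a difference of 0.38, and Hdac1, which sits in the same Sin3, NuRD and CoREST complexes, at 13.5 and 14.3 FPKM. Hdac2 thus outweighed Hdac1 6.67 times in B16 and 8.18 times in B16/BL6. Hdac3, the NCoR enzyme, was at 49.3 and 50.01 FPKM. Among the class II genes, Hdac5 was at 27.2 and 21.1 FPKM (-0.35), and Hdac10, a polyamine deacetylase, at 7.15 and 5.10 FPKM (-0.42). Hdac4, Hdac6, Hdac7, Hdac8 and Hdac11 had differences from -0.21 (Hdac4) to 0.20 (Hdac6). Hdac9 was at 0.279 FPKM in B16 and was listed at 0 in B16/BL6, under the minimum in both.

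The sirtuins held 3 of the 5 enzymes past 1.5-fold on the log2(FPKM + 1) scale, where 9.38% of all genes were higher and 8.56% lower. As plain ratios, Tet1 (2.25 times higher in B16/BL6) and Dnmt3a (1.52 times higher in B16) were also past 1.5-fold. Sirt6, a chromatin deacetylase (chromosome 10, 81621787 to 81627792), was at 10.7 FPKM in B16 against 18.3 in B16/BL6, a difference of 0.72, about 203 and 386 fragments. Sirt4, a mitochondrial sirtuin (chromosome 5, 115478006 to 115490264), went the other way, at 2.96 and 1.59 FPKM (-0.62), but on only about 53 and 32 fragments. Together with Sirt1 these made the spread of the family wide, from -0.62 to 0.77, around a median of 0.00 (-0.17 on the TPM scale). Sirt2, the mainly cytoplasmic tubulin deacetylase, was the most abundant and was level, at 66.0 and 66.2 FPKM. The mitochondrial Sirt3 (5.41 and 6.36 FPKM) and Sirt5 (7.77 and 6.54 FPKM) and the nucleolar Sirt7 (18.9 and 17.6 FPKM) were within 1.25-fold, and 12.4% of the exon bases of Sirt3 are shared with other genes, Psmd13 among them. The ratio of Sirt2 to Sirt1 was 29.0 in B16 and 14.4 in B16/BL6.

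Arginine methyltransferase genes were mostly above 0, with Prmt7 as the exception. Of 7 past the minimum, 6 were above 0, with a median of 0.27, but the median was 0.10 on the TPM scale and 0.01 when each chromosome was centred at the median of its genes, with 4 of 7 above 0. Prmt1, the main asymmetric dimethyltransferase (chromosome 7, 44976755 to 44986420), was the most abundant of the 66 enzymes, at 259 FPKM in B16 against 313 in B16/BL6. It held 61.2% and 64.0% of the class sum. Prmt5, the main symmetric dimethyltransferase, was at 55.6 and 70.6 FPKM (0.34). Prmt2 was at 21.8 and 28.7 FPKM (0.38) and Prmt10 (now Prmt9) at 6.48 and 9.12 FPKM (0.44). The 20 nearest expressed genes had similar medians, 0.22 around Prmt1, 0.34 around Prmt5 and 0.35 around Prmt10. Prmt3 (37.7 and 38.2 FPKM) and Prmt6 (12.5 and 14.2 FPKM) were within 1.25-fold. Prmt7 held 7.18% of the class sum in B16 and 3.14% in B16/BL6.

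**Figure D3:**
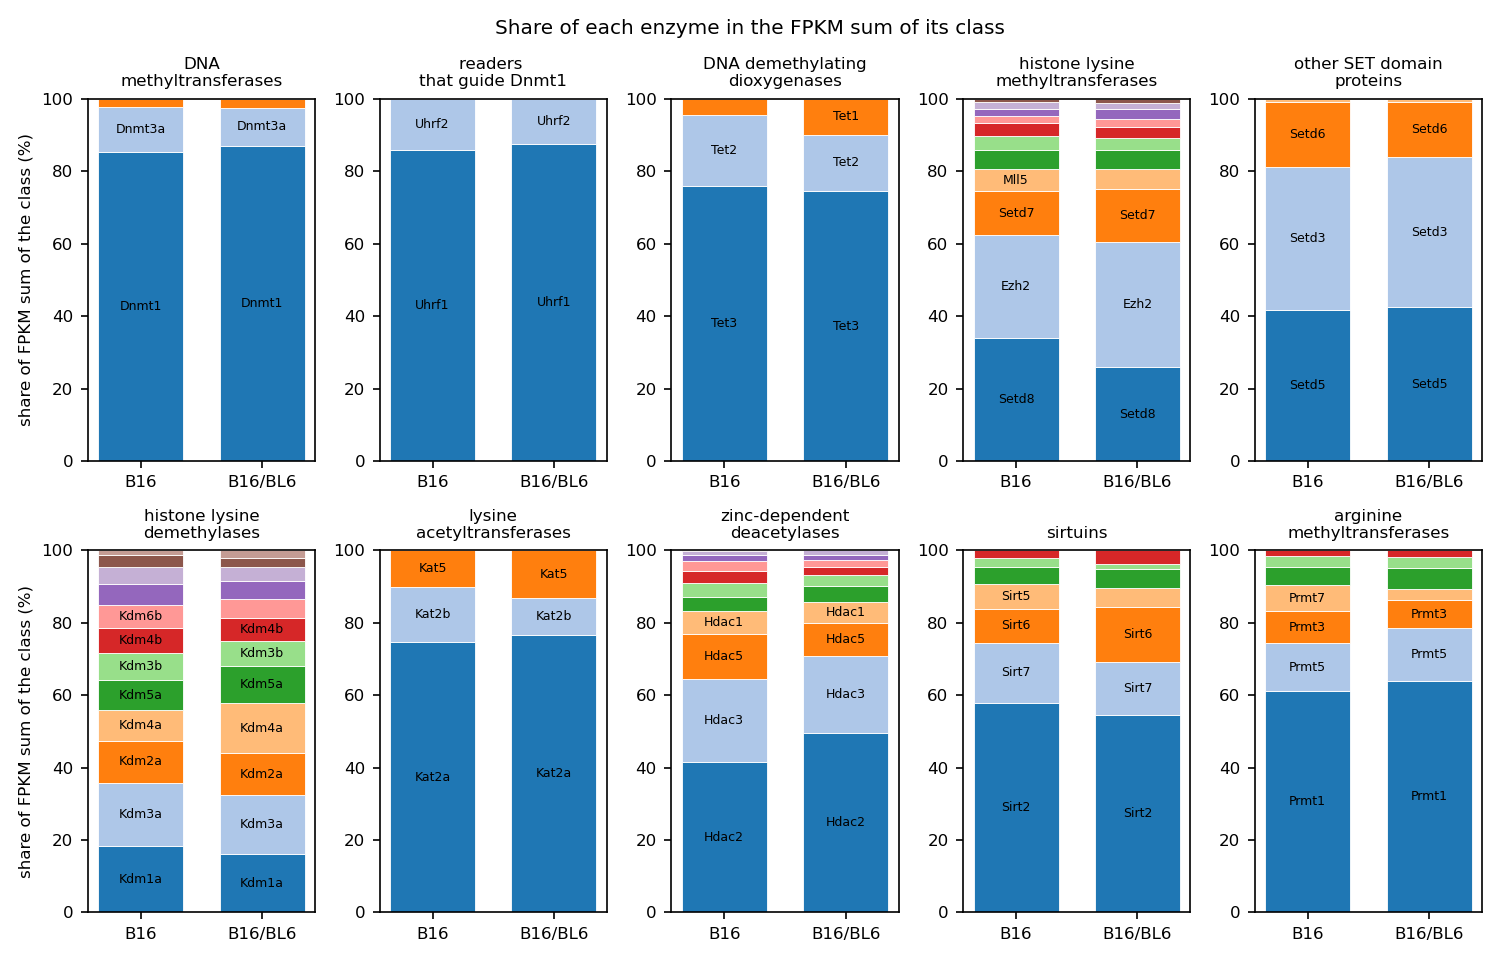
Share of each enzyme in the FPKM sum of its class (percent, 0 to 100) in B16 and B16/BL6, 1 library each, with shares above 6% named. Dnmt1, Uhrf1, Tet3, Kat2a, Sirt2 and Prmt1 are the largest part of their class in both lines, and Hdac2 goes from 41.5% to 49.6% of its class.

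Several of the enzymes with the highest differences were on chromosome 10. Of the 10 highest, 5 were there (Sirt1, Sirt6, Tet1, Prmt2 and Hdac2), and these were all 5 expressed enzymes of that chromosome. The 528 expressed genes of chromosome 10 had a median difference of 0.41, the highest of the chromosomes, and 83.3% of them were above 0. Relative to that median, Prmt2 and Hdac2 were at -0.03, Tet1 at 0.12, Sirt6 at 0.31 and Sirt1 at 0.36. The 56 other enzymes had a median of -0.11, with 23 above 0. The neighbourhoods of the 5 genes were unlike. The 20 nearest expressed genes had a median of 0.59 around Sirt6, 0.42 around Hdac2 and 0.40 around Prmt2, but 0.17 around Tet1 and 0.07 around Sirt1, 2 genes that lie less than 1 Mb apart and share neighbours. The number of copies of chromosome 10 in each line was not measured, and its part in these values was not tested.

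Enzymes of chromosomes with a low median were also moved by centring. On chromosome 13 (median -0.32) Kdm1b went from -0.46 to -0.14 and Sirt5 from -0.22 to 0.10. On chromosome 18 (median -0.29) Kdm3b went from -0.30 to -0.01 and Hdac3 from 0.02 to 0.32. The lower values of Prmt7 (-0.94 and, after centring, -0.96), Dnmt3a (-0.55 and -0.72), Kat2b (-0.69 and -0.62) and Sirt4 (-0.62 and -0.61) were not reduced by more than 0.1. The 3 DNA methyltransferases and 10 of the 12 lysine demethylases were below 0 with each chromosome centred.

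**Figure D4:**
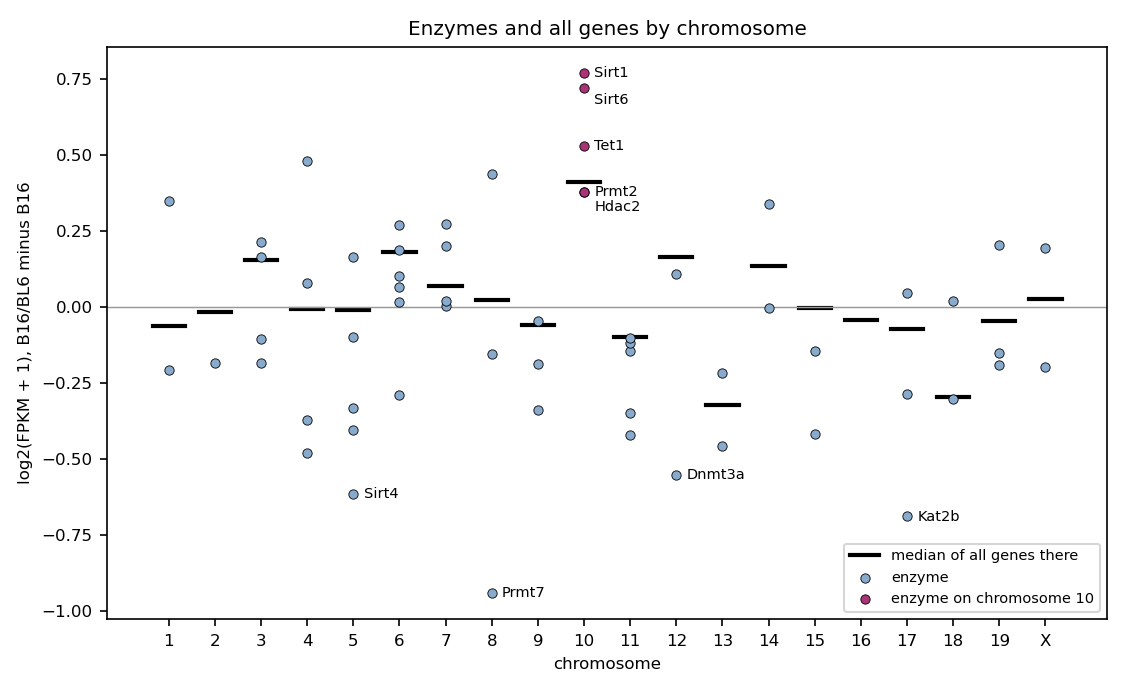
Difference in log2(FPKM + 1), B16/BL6 minus B16, of each enzyme (points) on its chromosome, with the median of all expressed genes of that chromosome as a bar. The 5 enzymes of chromosome 10 lie between 0.38 and 0.77, around or above the chromosome's median of 0.41, and Prmt7 on chromosome 8 is the lowest point.

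Genes that work with these enzymes, further enzymes, and cofactor, germline and cell cycle genes were taken in lists, all called partner lists here. In 9 lists of partner genes, 110 genes reached the minimum, of which 0 were past 2-fold upward in B16/BL6 and 1 was past it downward, beside 3.31% and 3.16% of all genes. That gene was Phf19, whose product brings PRC2 to methylated chromatin, at 3.28 FPKM in B16 against 0.534 in B16/BL6 (-1.48). Jarid2, another PRC2 cofactor, was at 6.92 and 3.77 FPKM (-0.73). The core PRC2 subunit genes Suz12, at 48.8 and 44.6 FPKM, and Eed, at 26.3 and 23.8 FPKM, were within 1.25-fold. In all, 8 of the 9 PRC2 genes were below 0 and 1 above, where 50.6% of all genes were above 0, with a median of -0.14. Ezh2 itself was above 0, but at 0.09 with each chromosome centred, and its 20 nearest expressed genes had a median of 0.33. Jarid2 went from -0.73 to -0.41 with centring.

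Among the 16 methyltransferases with other symbols, Smyd2, whose product methylates p53 and other proteins, was just short of 2-fold on the log2(FPKM + 1) scale, at 99.7 FPKM in B16 against 49.8 in B16/BL6 (-0.99), and Suv420h2 was at 6.95 and 9.42 FPKM (0.39). The 11 COMPASS genes, which encode subunits of Mll and SET1 complexes, ran from -0.35 (Men1, 21.3 and 16.6 FPKM) to 0.30 (Hcfc1, 46.8 and 57.8 FPKM). Of the 18 deacetylase complex genes, Sin3b was the highest, at 107 and 188 FPKM (0.81), and Chd3, a NuRD remodeller, the lowest, at 16.8 and 9.67 FPKM (-0.74). Of the 18 further acetyltransferase genes, the coactivators Ep300 (15.1 and 19.1 FPKM) and Crebbp (4.96 and 6.45 FPKM) had the largest differences, both 0.32.

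Further lists held genes for the cofactors and the readout of methylation. Of 17 genes of cofactor metabolism, Idh1, whose enzyme makes the alpha-ketoglutarate used by Tet and most Kdm enzymes, was at 21.2 FPKM in B16 against 35.8 in B16/BL6 (0.73). Its more abundant paralog Idh2 was at 267 and 248 FPKM (-0.11). Mat2a, which makes the methyl donor S-adenosylmethionine, was at 127 and 96.1 FPKM (-0.40). Of the methyl-CpG readers and repair genes, Apex1 was at 62.8 and 87.8 FPKM (0.48). Tdg, which excises oxidised methylcytosine, was listed under the minimum in both libraries, with 0.775 FPKM in B16/BL6. Its B16 entry, 4.59e-05 FPKM, is far less than a single fragment would give at the estimated depth. That entry is thus not a measured level and does not show that Tdg was absent. Whether fragments of Tdg were assigned to other genes was not tested, and how reads mapping to several places were treated is not known. Of 13 germline genes that DNA methylation keeps silent in somatic cells, 10 were listed at 0 in both libraries, and 0 reached the minimum. The others, all at 0 in B16, were Sycp3 (0.461 FPKM in B16/BL6), Tuba3b (0.121 FPKM) and Ddx4 (0.032 FPKM). Since Dnmt1, Uhrf1 and Ezh2 are also expressed with the cell cycle, 14 replication and cell cycle genes were set beside them: 8 were above 0, beside 50.6% of all genes, with a median of 0.05. The largest differences were those of Rrm2 (250.03 and 361 FPKM) and Ccna2 (99.7 and 141 FPKM).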

How the data were processed

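RNA of each line was made into 1 stranded mRNA library, per the labels' protocols. The deposited values are FPKM, 1 per gene symbol, per the file headers. The submitters' processing notes name, with no roles, the mm10 build, Cufflinks 2.2.1, Bowtie2 2.2.3, TopHat2 2.0.13 and SAMtools 0.1.19. Not given in the sources used here were the annotation, strand setting, treatment of reads that map to several places, and depth. Shared reads of paralogs or overlapping genes may thus be split in an unknown way.

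No test was run, since each line had 1 library. Differences used log2(FPKM + 1), a minimum of 1 FPKM in at least 1 library and a 2-fold threshold. Named were the 20 enzymes with the largest differences, the 3 most abundant and 21 fixed genes, and per partner list the genes past 2-fold and the 2 with the largest differences. Others are given to complete each class. The enzymes and lists were chosen with earlier results of these data known. Positions came from RefSeq GRCm38.p6 by symbol or by a synonym of 1 gene (23040 symbols placed). Transcript lengths and shared exons came from GENCODE M21 protein-coding genes. Shared exon bases are given above where they made up 10% or more, in 4 enzymes. Smaller shares included 9.99% in Kdm1b and 6.33% in Prmt7. The depth estimate used genes below 0.2 FPKM with 1 annotated transcript over 1500 bases, keeping estimates within set limits (190 genes in B16 and 210 in B16/BL6). It is approximate, and no interval was derived. Python 3.11.15 and pandas 2.3.3 were used, and the procedure was tested on simulated data. Alternatives were pseudocounts of 0.1 and 5, no minimum or 5 FPKM, TPM and upper-quartile scaling, chromosome centring and a 1.5-fold threshold. The promoter counts, neighbouring genes, plain ratios, older symbols and the markers Tyr and Dct were added after the values were seen.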

Additional observations from a re-analysis of the deposited data

How the results depend on the processing

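The counts of enzymes past 2-fold were 0 in each direction, and alternatives moved them by at most 1 at that threshold. With a pseudocount of 0.1, 1 enzyme was higher (Tet1, 1.04), and on the TPM scale 1 was lower (Prmt7, -1.13). At 1.5-fold, 2 were higher (Sirt1 and Sirt6) and 3 lower (Prmt7, Kat2b and Sirt4), where 9.38% and 8.56% of all genes were. The TPM scale shifted the median of all genes by -0.16 and that of the enzymes to -0.27. The enzymes' median stayed about 0.1 below that of all genes in the scalings (by -0.11 in TPM and by -0.07 after chromosome centring). A change of pseudocount or minimum cannot turn the sign of a difference, so only TPM, upper-quartile scaling and chromosome centring bear on it. Under those that apply to them, 48 of the 61 enzymes kept their sign, and 13 turned in at least 1. Of the 13, Hdac2, Prmt2 and Sirt5 turned with chromosome centring, and the other 10 lay within 0.11 of 0 as reported. Low enzymes, such as Sirt4 and Tet1, rest on few fragments. Without replicates the differences above have no error, and no library could be left out. No paired analysis was possible because each line had a single library.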
